A study of Mus musculus with 9 samples.

Results

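The CXC chemokines and the chemokine receptors Cxcr4 and Cx3cr1 were followed in RAW264.7 cells, a mouse macrophage line derived from Abelson murine leukemia virus-induced tumors of a male mouse. The 10 genes were taken by symbol: the ligands Cxcl1, Cxcl2, Cxcl3, Cxcl9, Cxcl10, Cxcl11, Cxcl14 and Cxcl16 and the receptors Cxcr4 and Cx3cr1, out of 55401 genes in the expression table. Wild-type cells of this single line were treated for 24 h with DMSO, the vehicle, with DMSO and lipopolysaccharide (LPS), a component of the bacterial outer membrane that activates macrophages, or with LPS and skatole (LPS + Ska), an indole compound, with 3 columns of RNA sequencing values in each group, numbered 5, 6 and 7. The comparisons address how LPS changed these genes and how far skatole, given together with LPS, altered that response. The treatment time is that of the labels and of the study's results, while its methods state a longer one for the sequenced RNA. The labels do not say whether the replicates were separate cultures, so the tests measure only the spread between columns, and a lower transcript level cannot be told apart from fewer cells of a kind that expresses the gene.

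Chemokines are small secreted proteins that draw leukocytes along a gradient by binding G protein-coupled receptors. In macrophages, signalling from the LPS receptor through NF-kB is known to switch on Cxcl1, Cxcl2 and Cxcl3, which attract neutrophils through Cxcr2, whereas interferon signalling is known to drive Cxcl9, Cxcl10 and Cxcl11, which attract T cells through Cxcr3. Cxcl16, the ligand of Cxcr6, can be anchored in the membrane and also acts as a scavenger receptor. Cxcl14 is a constitutively expressed chemokine of epithelia and other tissues, Cxcr4 binds Cxcl12, and Cx3cr1, the receptor of the membrane-bound chemokine Cx3cl1, marks resident macrophages and microglia.

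Values were TPM (transcripts per 1e6), which are scaled for gene length and have about the same sum in each column, so that levels of different genes in a column can be ranked, while the number of reads behind them is unknown. Between 12498 and 13012 genes reached 1 TPM in each column. In the LPS group, column 5 equalled the mean of columns 6 and 7 within 1e-05 TPM in 17950 of the 17950 genes in which both were above 0, and the same held for 17658 of 17658 genes in LPS + Ska, against at most 0.0614% of genes for any DMSO column. So no more than 2 of the 3 values of a gene in either group are independent, and results are also given from 2 recovered values per group (column 5 plus and minus 0.5 times the gap between column 5 and the higher of the others). Of 10 macrophage markers, 9 were at 1 TPM or more in every column and Mertk was listed at 0 throughout, while the T cell and epithelial markers were all listed at 0 and the summed B cell, neutrophil, fibroblast and endothelial markers reached at most 0.691 TPM. The summed macrophage markers ranged from 12430 to 13400 TPM in DMSO, from 7375 to 7773 in LPS and from 13690 to 13950 in LPS + Ska, a difference carried mainly by Lyz2, the lysozyme gene (4219 to 4627 TPM in LPS and at least 8866 in the other groups). Whether this shift had a part in the chemokine values was not tested.

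Cxcl2 and Cxcl10 rose with LPS, and Cx3cr1, Cxcl14 and Cxcl16 fell. Among the 5 members high enough to be tested, skatole lowered Cxcl10 and raised Cx3cr1 relative to LPS alone, whereas no difference was detected for Cxcl2. The other 5 members (Cxcl1, Cxcl3, Cxcl9, Cxcl11 and Cxcr4) averaged under 1 TPM and were not tested, with Cxcl3 just under the limit at a mean of 0.983 TPM.

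**Figure D1:**
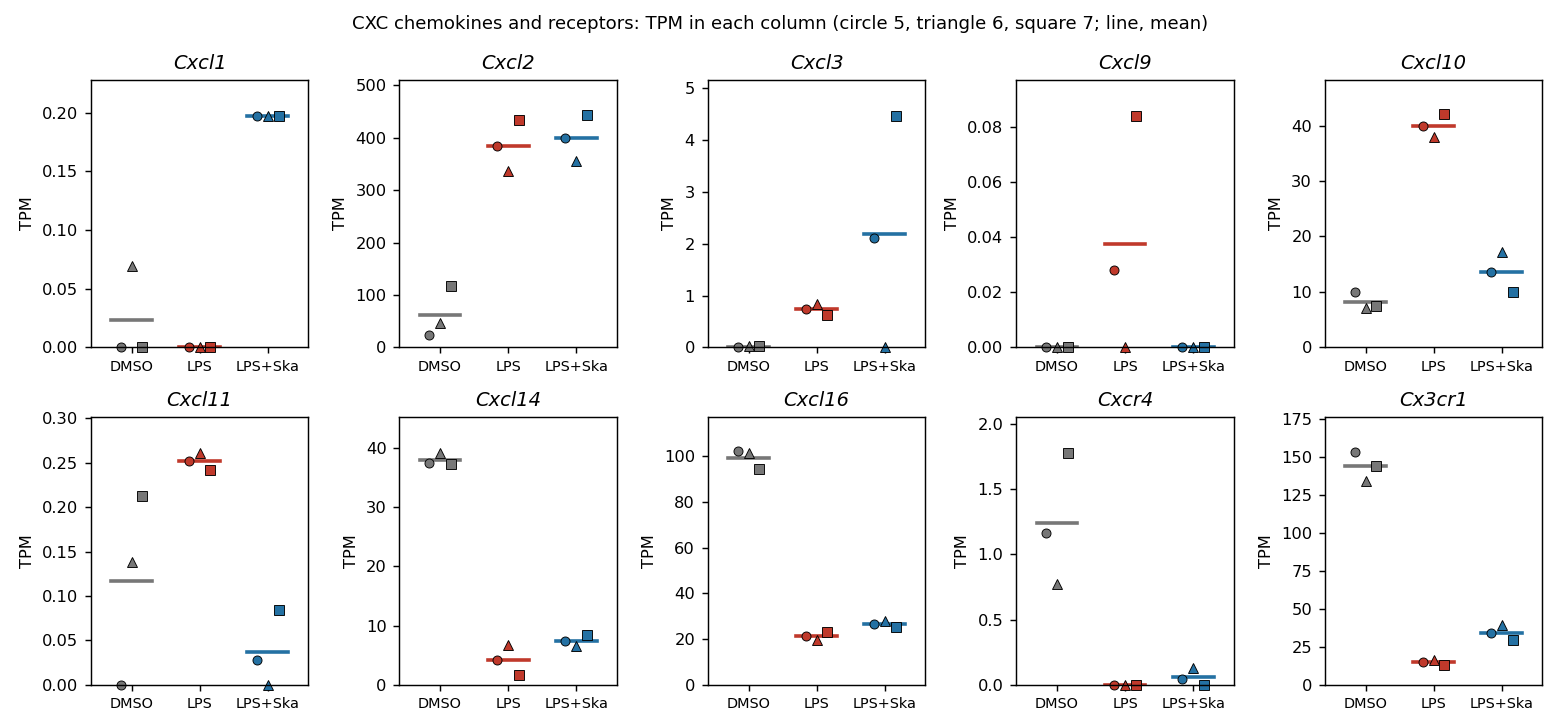
TPM of each of the 10 genes (vertical axis, starting at 0, with its own range for each gene) in the DMSO, LPS and LPS + Ska columns, with circles for column 5, triangles for column 6, squares for column 7 and a line at the mean. Cxcl2 was alike in both LPS groups (means of 385 and 399), Cxcl10 was high in LPS alone (40.0), and Cxcl14, Cxcl16 and Cx3cr1 were highest in DMSO.

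The neutrophil chemokine genes Cxcl1, Cxcl2 and Cxcl3 lie in a cluster on the plus strand of chromosome 5 (GRCm38), Cxcl3 at chr5:90786103-90789600, Cxcl1 at chr5:90891241-90893115 and Cxcl2 at chr5:90903871-90905938, each with 4 exons. Their promoters are shown because all 3 hold the same NF-kB letters near the start while their transcript levels differed widely. The sequences are the 250 bases before the RefSeq start (GRCm38.p6, plus strand) at chr5:90890995-90891244 for Cxcl1, chr5:90903649-90903898 for Cxcl2 and chr5:90785851-90786100 for Cxcl3, and capitals mark matches to GGGANNTTC on either strand.
Cxcl1: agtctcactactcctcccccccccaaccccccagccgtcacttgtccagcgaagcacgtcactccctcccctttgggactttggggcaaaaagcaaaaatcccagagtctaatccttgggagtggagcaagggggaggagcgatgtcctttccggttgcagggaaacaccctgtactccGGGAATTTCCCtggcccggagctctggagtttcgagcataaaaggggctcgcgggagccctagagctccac
Cxcl2: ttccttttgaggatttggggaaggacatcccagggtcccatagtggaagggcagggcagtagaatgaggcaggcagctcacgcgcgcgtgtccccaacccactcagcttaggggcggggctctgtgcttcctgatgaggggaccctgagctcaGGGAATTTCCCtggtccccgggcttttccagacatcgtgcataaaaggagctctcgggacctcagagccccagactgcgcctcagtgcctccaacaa
Cxcl3: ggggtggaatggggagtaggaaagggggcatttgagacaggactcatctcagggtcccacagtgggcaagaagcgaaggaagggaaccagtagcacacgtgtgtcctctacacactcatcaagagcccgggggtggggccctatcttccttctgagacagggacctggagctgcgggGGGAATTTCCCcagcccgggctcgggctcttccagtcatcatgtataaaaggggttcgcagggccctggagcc
In each of the 3, a match on the plus strand overlaps a match on the minus strand, beginning 71 bases before the start and 69 before it in Cxcl1, 97 and 95 in Cxcl2, and 73 and 71 in Cxcl3. These letters occur in 3.23% of 32851 RefSeq promoter windows of this length.

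Cxcl2 was the most abundant CXC ligand after LPS. Its TPM in columns 5, 6 and 7 was 23.4, 46.9 and 117 in DMSO (62.5 ± 48.8, SD, n = 3), 385, 336 and 435 in LPS (385 ± 49.5, SD, n = 3 columns), and 399, 356 and 443 in LPS + Ska (399 ± 43.7, SD, n = 3 columns). All DMSO columns lay below all columns with LPS, although the DMSO columns themselves spread 5.00-fold, and the LPS and LPS + Ska columns overlapped. The log2 fold change of TPM + 1 was 2.89 for LPS against DMSO (SE 0.44, limma adjusted p = 0.000398) and 2.95 for LPS + Ska against DMSO (SE 0.44, limma adjusted p = 0.000313). The LPS against DMSO value was 2.35 without DMSO replicate 5 and 3.49 without DMSO replicate 7. Between LPS + Ska and LPS it was 0.05, with a 95% confidence interval from -0.94 to 1.05 (limma adjusted p = 0.941). The variance of a gene was pooled over the 3 groups, so this interval includes the spread of the DMSO columns: it ran from -0.47 to 0.58 without DMSO replicate 7 and from -0.62 to 0.73 without DMSO replicate 5. The interval was wider in other fits, from -1.05 to 1.16 without DMSO replicate 6 and from -1.26 to 1.37 on recovered values.

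Cxcl1 and Cxcl3, of the same cluster, were scarcely detected. Cxcl1 was listed at 0 in DMSO columns 5 and 7 and at 0.0694 TPM in column 6, at 0 in all LPS columns, and at 0.198 TPM in all 3 LPS + Ska columns. Cxcl3 was listed at 0, 0.0185 and 0.0330 TPM in DMSO, at 0.736, 0.837 and 0.635 in LPS, and at 2.12, 0 and 4.47 in LPS + Ska. Cxcl3 was thus above DMSO in every LPS column but listed both at 0 and at its highest value in LPS + Ska, where the recovered values were 0.944 and 3.29 TPM. In a fit without the filter on low values, the log2 fold change of Cxcl3 was 0.77 (SE 0.54) for LPS against DMSO and 1.34 (SE 0.54) for LPS + Ska against DMSO, neither of which passed (limma adjusted p = 0.334 and 0.105). Cxcl1 was 0.26 higher in LPS + Ska than in LPS in that fit (limma adjusted p = 0.000652), inside the fold limit and with 3 identical values in each of the groups compared.

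The Cxcl2 and Cxcl3 coding sequences are 89.8% identical over 303 bases each, and their transcripts share an unbroken run of 110 bases. Cxcl1 is further from both, with 75.6% identity to Cxcl2 and 72.6% to Cxcl3 and no shared run over 23 bases. How reads shared by these copies were assigned is not given in the sources used here, so the low Cxcl3 values beside the high levels of Cxcl2 are uncertain. The longest annotated 3′ UTRs of Cxcl1, Cxcl2 and Cxcl3 hold 6, 7 and 2 copies of TATTTAT, an AU-rich element of the kind bound by decay factors such as tristetraprolin, and those of the other 7 members hold 0. Among 20196 genes with a 3′ UTR of at least 100 bases, 28.7% hold at least 1 copy, 10.9% at least 2, and 0.53% at least 6.

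Cxcl9, Cxcl10 and Cxcl11 form another cluster on chromosome 5, on the minus strand, at chr5:92321347-92328079, chr5:92346638-92348889 and chr5:92359544-92365485. Cxcl9 and Cxcl10 have 4 exons each, and Cxcl11 is annotated as a polymorphic pseudogene, a gene that is intact in some mouse strains only. The promoters of Cxcl9 (chr5:92328080-92328329) and Cxcl10 (chr5:92348890-92349139) are shown, on the minus strand of the same build, because each holds both the interferon-response letters GAAANNGAA (ISRE) and the NF-kB letters GGGANNTTC, which are in capitals.
Cxcl9: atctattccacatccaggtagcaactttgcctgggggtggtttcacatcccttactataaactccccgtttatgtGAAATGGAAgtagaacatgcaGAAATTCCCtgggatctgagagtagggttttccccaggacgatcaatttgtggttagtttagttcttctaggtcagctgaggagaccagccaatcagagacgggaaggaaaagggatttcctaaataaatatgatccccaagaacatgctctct
Cxcl10: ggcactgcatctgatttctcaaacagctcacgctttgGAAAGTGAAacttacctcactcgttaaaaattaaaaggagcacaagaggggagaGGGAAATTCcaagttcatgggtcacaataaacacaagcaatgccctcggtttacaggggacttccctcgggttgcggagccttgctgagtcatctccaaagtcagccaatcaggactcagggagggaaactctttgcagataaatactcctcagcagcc
The ISRE match comes first in both, beginning 175 bases before the start in Cxcl9 and 213 in Cxcl10, followed by the NF-kB match 154 and 159 bases before the start, with no overlap between the motifs. The ISRE letters are found in 7.13% of all promoter windows. No window for Cxcl11 or Cxcl16 was among the RefSeq sequences, so 8 of 10 members were searched.

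**Figure D2:**
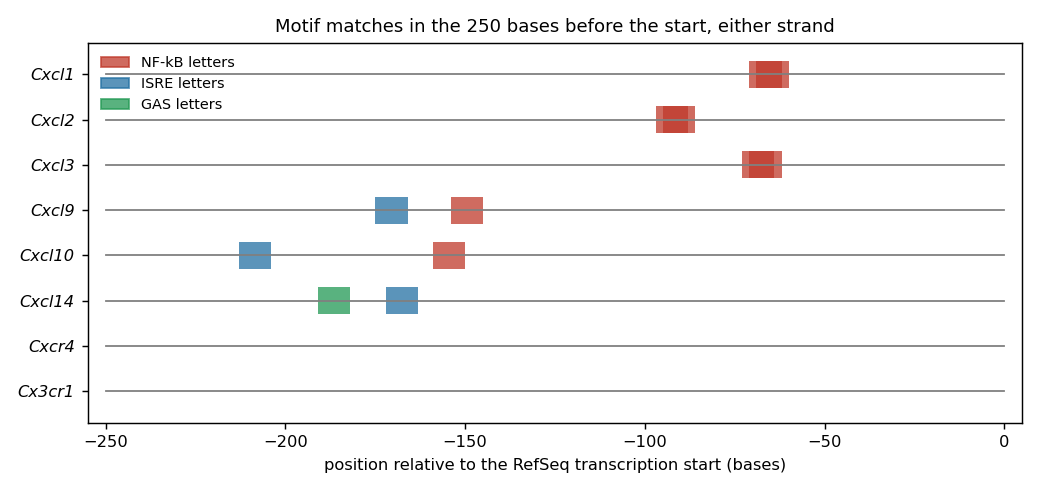
Positions of the NF-kB (GGGANNTTC), ISRE (GAAANNGAA) and GAS (TTCNNNGAA) letters, on either strand, in the 250 bases before the RefSeq start of 8 members, with the distance from the start in bases on the horizontal axis. Cxcl1, Cxcl2 and Cxcl3 hold overlapping NF-kB matches within 97 bases of the start, Cxcl9 and Cxcl10 hold both NF-kB and ISRE matches, Cxcl14 holds GAS and ISRE matches, and Cxcr4 and Cx3cr1 hold none.

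Cxcl10 was the only tested member called lower with skatole. Its TPM in columns 5, 6 and 7 was 10.1, 7.11 and 7.44 in DMSO (8.21 ± 1.63, SD, n = 3), 40.0, 37.9 and 42.1 in LPS (40.0 ± 2.13, SD, n = 3 columns), and 13.6, 17.2 and 10.0 in LPS + Ska (13.6 ± 3.56, SD, n = 3 columns). The LPS columns lay above all others, whereas the lowest LPS + Ska column was below the highest DMSO column. The recovered LPS + Ska values, 11.8 and 15.4 TPM, were above all DMSO columns. Cxcl10 rose by 2.17 on the log2 scale with LPS (SE 0.18, limma adjusted p = 9.20e-06) and was lower in LPS + Ska than in LPS (log2 fold change -1.52, SE 0.18, limma adjusted p = 0.00053). The decrease was called in all 17 alternative fits, with log2 fold changes from -1.69 to -1.33, recovered values among them (limma adjusted p = 0.00217).

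Of the rise of Cxcl10 with LPS, 17.0% remained in LPS + Ska (SD 11.2 over the 3 columns, which ran from 5.75% to 28.2%). Against DMSO, LPS + Ska was still 0.65 higher on the log2 scale (SE 0.18, limma adjusted p = 0.0103), which is 1.57-fold and close to the limit of 1.5-fold. That call changed when single columns were left out. Without DMSO replicate 6 the log2 fold change was 0.56 (limma adjusted p = 0.0410), inside the limit. Without LPS + Ska replicate 6 it was 0.48, also inside the limit, although that column is tied to the others of its group. On recovered values the call was kept (log2 fold change 0.67, limma adjusted p = 0.00737).

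Cxcl9 and Cxcl11 were near the bottom of the table. Cxcl9 was listed at 0 in all DMSO and LPS + Ska columns and at 0.0281, 0 and 0.0842 TPM in LPS. Cxcl11 was listed at 0, 0.138 and 0.213 TPM in DMSO, at 0.252, 0.261 and 0.242 in LPS, and at 0.0279, 0 and 0.0838 in LPS + Ska. The LPS columns of Cxcl11 were above those of both other groups, and in the fit without a filter its log2 fold change for LPS + Ska against LPS was -0.27 (SE 0.068, limma adjusted p = 0.0324), inside the fold limit.

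Cxcl16, on the minus strand at chr11:70453983-70459984 with 5 exons, had the highest mean of the ligands in DMSO. Its TPM in columns 5, 6 and 7 was 102, 101 and 94.2 in DMSO (99.2 ± 4.36, SD, n = 3), 21.1, 19.4 and 22.9 in LPS (21.1 ± 1.78, SD, n = 3 columns), and 26.6, 28.0 and 25.2 in LPS + Ska (26.6 ± 1.43, SD, n = 3 columns). No column of any group overlapped another group. It fell by 2.18 on the log2 scale with LPS (SE 0.077, limma adjusted p = 6.80e-08) and by 1.86 in LPS + Ska against DMSO (SE 0.077, limma adjusted p = 1.95e-07). LPS + Ska was 0.32 above LPS on the log2 scale (SE 0.077, 95% confidence interval 0.15 to 0.49, limma adjusted p = 0.0142), a 1.25-fold difference that passed the p threshold but not the fold limit, and whose adjusted p reached 0.0587 without LPS + Ska replicate 5.

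Cxcl14, on the minus strand at chr13:56288643-56296551 with 4 exons, fell as well. Its TPM was 37.4, 39.2 and 37.2 in DMSO (37.9 ± 1.08, SD, n = 3), 4.14, 6.67 and 1.61 in LPS (4.14 ± 2.53, SD, n = 3 columns), and 7.41, 6.49 and 8.33 in LPS + Ska (7.41 ± 0.916, SD, n = 3 columns). DMSO was far above both other groups, whose columns overlapped because LPS column 6 exceeded LPS + Ska column 6. The recovered values, 2.87 and 5.40 TPM in LPS and 6.95 and 7.87 in LPS + Ska, did not overlap. The log2 fold change was -3.06 for LPS against DMSO (SE 0.31, limma adjusted p = 3.33e-05) and -2.22 for LPS + Ska against DMSO (SE 0.31, limma adjusted p = 0.00021). The difference of 0.84 between LPS + Ska and LPS did not pass (SE 0.31, 95% confidence interval 0.14 to 1.54, limma adjusted p = 0.0727), but 0.75 on recovered values did (limma adjusted p = 0.0415), as did 1.20 without LPS replicate 6 (limma adjusted p = 0.0141). Without LPS replicate 7 it was 0.42 (limma adjusted p = 0.122), and over the 17 alternatives the adjusted p ran from 0.0141 to 0.161. Its promoter window holds the interferon-gamma activated site letters TTCNNNGAA (GAS), present in 7.02% of windows, and an ISRE match, beginning 191 and 172 bases before the start.

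Cx3cr1, on the minus strand at chr9:119901616-120069879, was the most abundant member in DMSO. Its TPM in columns 5, 6 and 7 was 153, 135 and 144 in DMSO (144 ± 9.44, SD, n = 3), 14.8, 16.2 and 13.4 in LPS (14.8 ± 1.40, SD, n = 3 columns), and 34.3, 39.2 and 29.5 in LPS + Ska (34.3 ± 4.88, SD, n = 3 columns). The groups were fully separate, with LPS + Ska between LPS and DMSO. Cx3cr1 fell by 3.20 on the log2 scale with LPS (SE 0.11, limma adjusted p = 5.17e-08), was 1.16 higher in LPS + Ska than in LPS (SE 0.11, limma adjusted p = 0.000158), and remained below DMSO (log2 fold change -2.04, SE 0.11, limma adjusted p = 6.48e-07). The 2.23-fold rise over LPS was called in all 17 alternative fits, with log2 fold changes from 1.06 to 1.26 and 1.16 on recovered values (limma adjusted p = 0.000634).

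Cxcr4, on the minus strand at chr1:128588199-128592293 with 2 exons, was low throughout. It was at 1.17, 0.774 and 1.78 TPM in DMSO, listed at 0 in all LPS columns, and at 0.0430, 0.129 and 0 in LPS + Ska. Every DMSO column was above every column with LPS. Without the filter on low values, the log2 fold change was -1.14 for LPS against DMSO (SE 0.15, limma adjusted p = 0.000896) and -1.06 for LPS + Ska against DMSO (SE 0.15, limma adjusted p = 0.00116), both called, and 0.08 for LPS + Ska against LPS (SE 0.15, limma adjusted p = 0.783). The promoter windows of Cxcr4 and Cx3cr1 hold none of the 3 motifs.

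**Figure D3:**
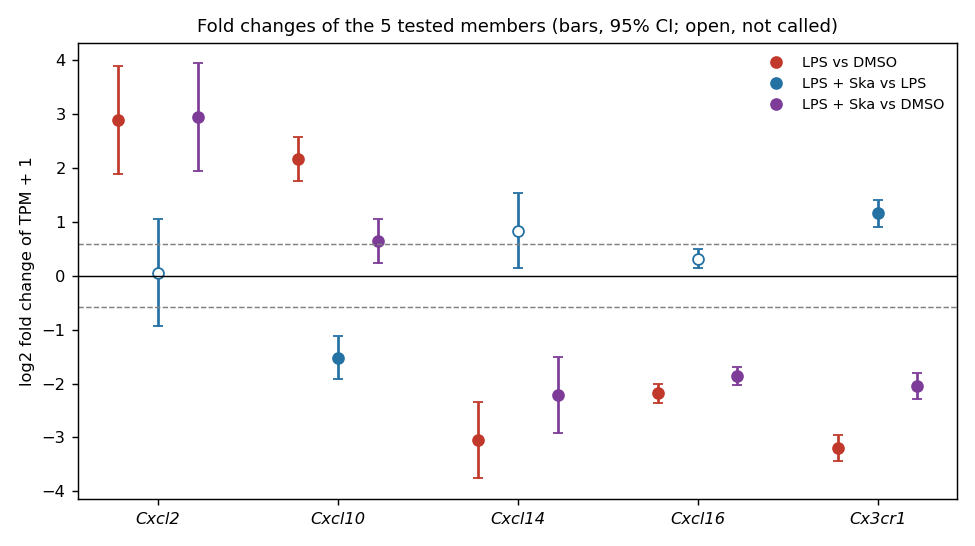
Log2 fold change of TPM + 1 (vertical axis) of the 5 tested members in the 3 comparisons, with bars for the 95% confidence interval, filled points for called members and dashed lines at 1.5-fold and 0.67-fold. Cxcl10 (-1.52) and Cx3cr1 (1.16) are the called members in LPS + Ska against LPS, and the interval of Cxcl2 spans -0.94 to 1.05.

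A gene was called when its adjusted p was under 0.05 and its fold change exceeded 1.5 or was less than 0.67. In LPS against DMSO, 2 of the 5 tested members were called higher, where 12.7% of the 12819 genes tested were, and 3 were called lower, where 20.0% were. With skatole against LPS alone, 1 was called higher, against 3.35% of all genes, and 1 lower, against 6.14%, and the count of higher members was 2 on recovered values and without LPS replicate 6, through Cxcl14. In LPS + Ska against DMSO, 2 were called higher, against 11.4%, and 3 lower, against 25.3%. The last comparison shares its DMSO columns with the first, so the like counts are not independent. The members tested were those that passed a filter on mean TPM. Cxcl14, Cxcl16 and Cx3cr1 had their highest values in DMSO but were above 1 TPM in every column.

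In TPM, 84.9% of the fall of Cx3cr1 with LPS was left in LPS + Ska (SD 3.77 over columns), 90.3% of that of Cxcl14 (SD 2.71) and 93.0% of that of Cxcl16 (SD 1.83). The rise of Cxcl2 was left at 104% (SD 13.5), and that of Cxcl10 at 17.0%. On this scale Cxcl10 returned most of the way to DMSO, while the 3 genes that fell stayed nearer to their LPS than to their DMSO levels, including Cx3cr1 with its 2.23-fold rise. Both differences in each share use the same DMSO columns.

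The order of the members changed with treatment. In DMSO it ran Cx3cr1, Cxcl16, Cxcl2, Cxcl14, Cxcl10 and Cxcr4, with the columns of Cxcl2 overlapping those of both Cxcl16 and Cxcl14. In LPS it ran Cxcl2, Cxcl10, Cxcl16, Cx3cr1, Cxcl14 and Cxcl3, with no overlap between neighbours, and in LPS + Ska it ran Cxcl2, Cx3cr1, Cxcl16, Cxcl10, Cxcl14 and Cxcl3, again without overlap among these 6. Within a column, where scaling between columns plays no part, the log2 ratio of Cxcl10 to Cxcl16 was -3.61 ± 0.25 in DMSO, 0.92 ± 0.045 in LPS and between -1.33 and -0.71 in LPS + Ska (SD 0.31, SDs over n = 3 columns). Cxcl10 was thus above Cxcl16 in LPS alone and below it in the other groups.

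The 8 ligands summed to between 173 and 256 TPM in DMSO, 401 to 502 in LPS and 408 to 492 in LPS + Ska. Cxcl16 made up 49.3% of that sum in DMSO on average and Cxcl2 27.8%, with Cxcl2 between 13.5% and 45.7% by column. With LPS the Cxcl2 share was 83.8% to 86.5%, and in LPS + Ska 87.3% to 90.2%.

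**Figure D4:**
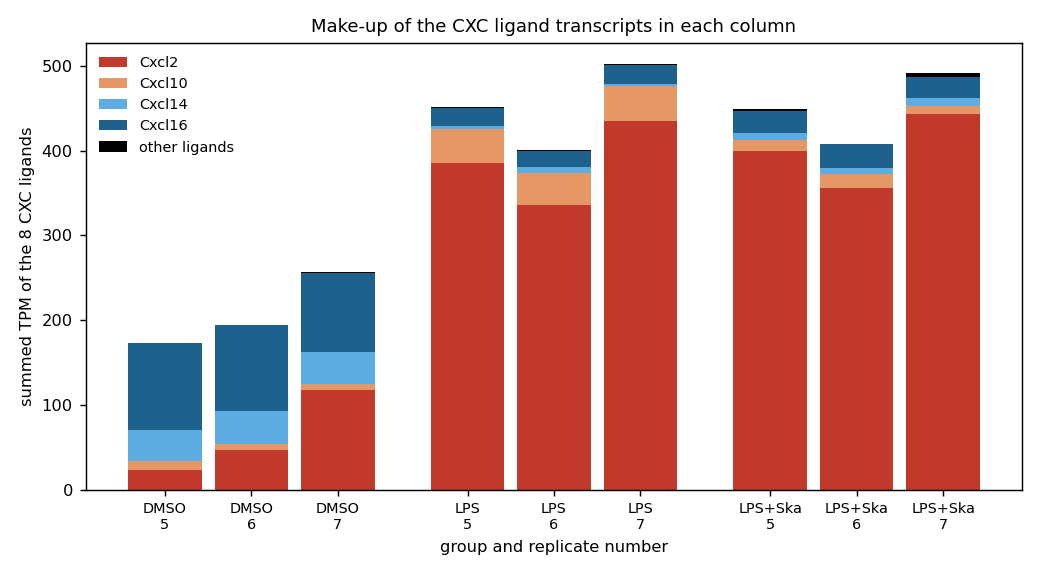
Summed TPM of the 8 CXC ligands (vertical axis, from 0) in each of the 9 columns, stacked by ligand, with Cxcl1, Cxcl3, Cxcl9 and Cxcl11 drawn together in black. Cxcl2 fills 83.8% or more of the bar in every LPS and LPS + Ska column, and the Cxcl10 layer is thickest in the LPS columns.

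Most partners of these ligands and receptors were listed at 0 or close to it. Of 17 other CXC and CX3C ligands, their receptors and atypical chemokine receptors, 9 were listed at 0 in all 9 columns, among them Cxcr2, the receptor of Cxcl1, Cxcl2 and Cxcl3, Cxcl12, the ligand of Cxcr4, and Cx3cl1, the ligand of Cx3cr1. Cxcr6, the receptor of Cxcl16, reached at most 0.327 TPM. Only Cxcr3 and Cxcr5 were tested, and these genes were singled out after their values were seen. Cxcr3, the receptor of Cxcl9, Cxcl10 and Cxcl11, was at 11.0, 10.4 and 8.80 TPM in DMSO, 17.3, 17.2 and 17.5 in LPS and 17.3, 18.6 and 16.1 in LPS + Ska. It rose with LPS (log2 fold change 0.73, limma adjusted p = 0.000144), and its LPS and LPS + Ska columns overlapped (difference 0.00, SE 0.095, limma adjusted p = 0.977).

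LPS raised all 5 genes of an activation check, and Il1b was called lower with skatole, as was Il6 with a limit given below. Tnf, Il1b, Il6, Nos2 and Ptgs2 were each called higher in LPS against DMSO, with a median log2 fold change of 3.58 where that of all genes was -0.07. Of all genes, 12.7% were called higher there. In LPS + Ska against LPS, 0 of the list were called higher and 2 lower, beside 3.35% and 6.14% of all genes. With skatole, Il6 (4.35 to 0.259 TPM on average, log2 fold change -2.08) and Il1b (28.1 to 10.2 TPM, -1.41, limma adjusted p = 0.00235), genes of inflammatory cytokines, were called lower, while Tnf averaged 210 and 207 TPM and was not called. Nos2, the inducible nitric oxide synthase gene, averaged 37.5 and 28.5 TPM (-0.39, limma adjusted p = 0.0202, inside the fold limit), and Ptgs2, the cyclooxygenase-2 gene, 158.5 and 202.8 TPM (0.35, limma adjusted p = 0.0703). At an unadjusted p under 0.05 in limma, 1 of the 5 was higher and 3 lower. Il6 passed the filter on mean TPM only through its LPS columns, the group where it was high, so its value is given as a description. Its calls are nevertheless included in the counts of this list. Nos2 was listed at 0 in all DMSO columns and Il1b averaged 0.155 TPM there, so both passed the filter only through columns with LPS. Their rises over DMSO are likewise given as a description. Il6 averaged under 5 TPM over all columns and was not tested where the filter was set there, which left 1 of the list called lower.

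Of 20 genes of the LPS receptor and NF-kB path, 4 were called higher and 3 lower in LPS against DMSO, where 12.7% and 20.0% of all genes were. LPS + Ska against LPS gave 1 higher and 2 lower, close to the 3.35% and 6.14% of all genes, with 16 of 20 fold changes below 0 and a median of -0.28 beside -0.10 over all genes. Ly96, the LPS co-receptor MD-2, went from a mean of 35.4 to 60.5 TPM (log2 fold change 0.77, limma adjusted p = 0.0214). The Ly96 call was lost without a filter, on recovered values, and without LPS replicate 5, LPS replicate 7 or LPS + Ska replicate 5 (limma adjusted p from 0.0502 to 0.0759). Nfkbie, an NF-kB inhibitor, went from 10.6 to 6.60 TPM (-0.62, limma adjusted p = 0.00576), and Tnfaip3, the NF-kB feedback inhibitor A20, from 12.7 to 6.86 TPM (-0.79, limma adjusted p = 0.0346). The Nfkbie call was lost on the fold limit after median-ratio scaling (-0.53) and without LPS + Ska replicate 7 (-0.55). The Tnfaip3 call was lost on leaving out any LPS or LPS + Ska column (adjusted p from 0.0523 to 0.106), without a filter, after median-ratio scaling and on recovered values (0.083, 0.051 and 0.105). These counts changed with the processing: on recovered values 0 were higher and 1 lower, and after median-ratio scaling 2 were higher and 0 lower. Without LPS replicate 5, LPS replicate 7 or LPS + Ska replicate 5, 0 were called higher, and 2 were without LPS + Ska replicate 7. The count of lower genes was 1 without LPS replicate 5, LPS replicate 6 or any LPS + Ska replicate, and the fit without a filter gave 0 higher and 1 lower. At an unadjusted p under 0.05 in limma, 4 were higher and 12 lower.

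Of 17 tested genes of the interferon path, 5 were called higher and 5 lower in LPS against DMSO (12.7% and 20.0% of all genes), and 0 higher and 4 lower in LPS + Ska against LPS (3.35% and 6.14% of all genes), with a median of -0.20 beside -0.10 over all genes. Among the genes called lower were Usp18, which damps interferon receptor signalling, and the transcription factors Irf7 and Stat2. Irf7 averaged 3.35, 96.1 and 38.0 TPM in DMSO, LPS and LPS + Ska (LPS + Ska against LPS -1.33, limma adjusted p = 0.0037), and Usp18 averaged 2.23, 99.5 and 38.3 (-1.36, limma adjusted p = 0.0102). Irf7 and Usp18 thus had the order of groups seen for Cxcl10, whereas Stat2 averaged 14.9, 12.4 and 6.38 TPM (-0.85, limma adjusted p = 0.00631). The calls of Usp18, Irf7 and Stat2 were kept on recovered values and after median-ratio scaling, and that of Usp18 was lost with a pseudocount of 0.1. At an unadjusted p under 0.05 in limma, 0 genes of the list were higher and 9 lower.

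Of 25 genes that signal below chemokine receptors, 1 was called higher and 11 lower in LPS against DMSO (12.7% and 20.0% of all genes), with a median of -0.56 beside -0.07 over all genes. With LPS + Ska against LPS, 0 were called higher and 4 lower (3.35% and 6.14% of all genes). Rgs16, which shortens G protein signalling, was listed at 0.379, 0.691 and 0.165 TPM in DMSO, at 24.3, 24.1 and 24.4 in LPS and at 4.36, 4.95 and 3.77 in LPS + Ska (LPS + Ska against LPS -2.24, SE 0.15, limma adjusted p = 2.62e-05). Rgs16 was the gene called higher in LPS against DMSO, and it passed the filter on mean TPM only through columns with LPS. Rgs2, of the same family, averaged 94.1, 37.5 and 19.0 TPM, falling at each step (LPS + Ska against LPS -0.94, limma adjusted p = 2.56e-05). Elmo1 and Dock2, which together activate Rac in migrating cells, were 0.67 and 0.61 lower (log2 fold changes -0.67 and -0.61, limma adjusted p = 0.00173 and 0.00478), and both calls were lost after median-ratio scaling (-0.57 and -0.51) and without LPS + Ska replicate 7 (-0.55 and -0.49). At an unadjusted p under 0.05 in limma, 1 was higher and 8 lower.

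Of 8 genes of mRNA decay factors, 2 were called higher and 3 lower in LPS against DMSO (12.7% and 20.0% of all genes). In LPS + Ska against LPS, 0 were called in either direction, where 3.35% of all genes were called higher and 6.14% lower. The median there was -0.25 beside -0.10 over all genes, and 0 were higher and 5 lower at an unadjusted p under 0.05 in limma. With a pseudocount of 0.1, and likewise without LPS replicate 7 or without LPS + Ska replicate 7, 1 decay factor gene was called lower. None of Adam10, Adam17 and Rhbdf2, which shed Cxcl16 and Cx3cl1 from the membrane or assist in it, was called in any comparison, and 1 was higher in LPS against DMSO at an unadjusted p under 0.05 in limma. Of all genes, 3.35% to 12.7% were called higher and 6.14% to 25.3% lower across the comparisons.

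**Figure D5:**
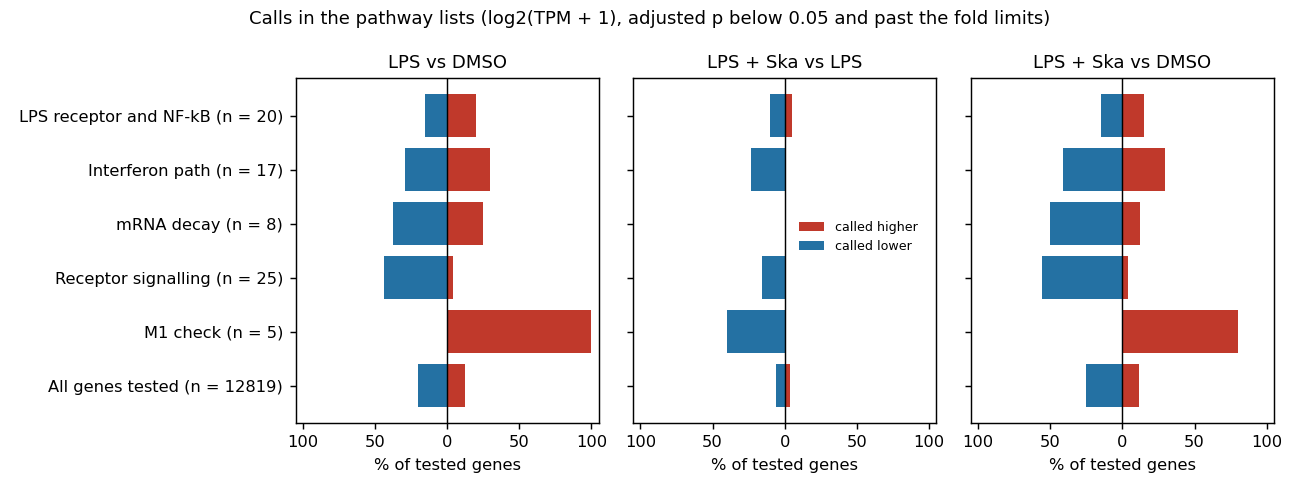
Percentage of tested genes called higher (right, red) and lower (left, blue) in 5 gene lists and in all 12819 genes tested, for the 3 comparisons. In LPS + Ska against LPS, the interferon, receptor signalling and activation lists hold calls in the lower direction alone, and the mRNA decay list holds none. The activation list includes Il6, which passed the filter on mean TPM only through its LPS columns. Its genes Il1b and Nos2 passed only through LPS and LPS + Ska columns.

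The genes most like each member were taken as the 3 with the highest Pearson r of log2(TPM + 1) over the 9 columns, of which 3 columns belong to each group and some are tied. For Cxcl10 they were Afdn (r = 0.997), Pias2 (r = 0.996) and Nfkb1 (r = 0.993), an NF-kB subunit gene with means of 82.8, 142.6 and 99.5 TPM in DMSO, LPS and LPS + Ska. For Cx3cr1 they were Tlr13 (r = 0.998), an endosomal sensor of bacterial RNA with means of 45.1, 9.09 and 16.5 TPM, Tmc6 (r = 0.997) and Bhlhe41 (r = 0.996). For Cxcl2 they were Ier3 (r = 0.995), an immediate early gene with means of 65.9, 213 and 215 TPM, Amn1 and Golt1b (r = 0.990 each). For Cxcl16 they were Ppfia4, B3gnt3 and P2ry6 (r = 0.998 to 0.999), and for Cxcl14 Zeb2os, Yif1b and Adprhl2 (r = 0.992 to 0.993). Such values were common, since 147 to 772 genes had r above 0.95 with a given member. Among the members, Cxcl14, Cxcl16 and Cx3cr1 were closest to each other (r = 0.931 to 0.967), and Cxcl2 and Cxcl10 were less alike (r = 0.611).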

How the data were processed

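Total RNA of RAW264.7 cells was sequenced from libraries made with the NEBNext Ultra RNA kit. According to the submitters' processing notes, fastp 0.20.1, HISAT2 2.2.1, StringTie 2.0 and the mm10 build (GRCm38) were used, and the deposited values are TPM per Ensembl gene computed by the authors, so depth per column is unknown. Symbols were found for 55141 of 55401 genes. For all 9 columns, log2(TPM + 1) was fitted with limma 3.58.1 (R 4.3.3; eBayes with trend) on genes that averaged 1 TPM or more, with Benjamini-Hochberg adjustment over all 12819 genes, after the fit was tested on simulated data. A fold change is on the log2(TPM + 1) scale, which understates the change of low genes. Members, lists and tests were chosen with earlier results of these data known. Genes named were the 10 members, the 3 genes most alike for each tested member, and up to 4 per list called in LPS + Ska against LPS, of which 1 gene is not reported here. Others are said to be chosen after their values were seen, and list genes given for contrast (Tnf, Nos2, Ptgs2, Mertk, Lyz2, the partner receptors and ligands, and the shedding genes) were chosen likewise. Alternatives were another pseudocount, filters, scaling, recovered values, a replicate block, the compared groups alone and leaving out each replicate. Sequences and motif positions are from RefSeq (GRCm38.p6) and gene positions, coding sequences and 3′ UTRs from GENCODE M21 (GRCm38).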

Additional observations from a re-analysis of the deposited data

How the results depend on the processing

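Over the alternatives, 249 of the log2 fold changes of the 5 tested members kept their direction and their call, 2 lost a call, 2 gained it and 2 turned sign. The sign turned for Cxcl2 in LPS + Ska against LPS, at -0.0401 when LPS replicate 6 was left out and -0.0226 when LPS + Ska replicate 7 was, and it was never called. The cause of the other changes was not tested. For LPS + Ska against LPS, the number of members called higher was 1, but 2 on recovered values, and 1 to 2 when replicates were left out. In LPS + Ska against DMSO the number called higher was 2, and 1 to 2 when replicates were left out. Tnfaip3 in LPS + Ska against DMSO ran from -0.539 to 0.0102 when replicates were left out, the latter without DMSO replicate 7. Over all genes, 516 were called lower in LPS + Ska against LPS at a mean TPM of at least 5 (787 at 1), where fewer genes are tested. After median-ratio scaling, which moved the median of LPS + Ska against DMSO by 0.172 on the log2 scale, 2212 genes were called higher there (1457 without), and higher genes made up 49.6% of calls instead of 31.0%, 52.4% instead of 35.3% in LPS + Ska against LPS and 48.8% instead of 38.9% in LPS against DMSO. The same scaling set the mean of Cxcl14 in DMSO at 35.1 TPM, Cxcl16 in DMSO at 91.8 and in LPS + Ska at 28.1, Cx3cr1 in DMSO at 133 and Cxcl1 in LPS + Ska at 0.209, and the share of the Cxcl16 change left at 89.7%. The share of the Cxcl14 change left ran from 87.1% to 93.8% when replicates were left out.

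Same-numbered columns of LPS and LPS + Ska deviated together (r = 0.38, 0.15 and 0.13), whereas those of DMSO did not with either (r = -0.03 to 0.08), and with tied columns this was not taken as pairing. With a replicate block, 1 member was called higher and 1 lower in LPS + Ska against LPS, beside 427 and 771 of all genes, and no call of a member changed.

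TPM carry no read depth, so no lower limit of detection can be set for the 5 members under 1 TPM. The tied columns leave at most 2 independent values in each LPS group, and the SD printed for these groups is that of the columns. Where a column equals the mean of the others, leaving out a column of its group removes no independent value.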

Other observations

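Platelet factor 4 (Pf4, also called Cxcl4), a CXC chemokine of platelets and macrophages that was under the filter on mean TPM, was singled out after its values were seen. It was listed at 0 in all DMSO columns, at 0.459, 1.38 and 0 TPM in LPS, and at 1.80, 1.98 and 1.61 TPM in LPS + Ska. The LPS + Ska columns were the highest, at a level near that of Cxcr4 in DMSO. In the fit without a filter on low values, Pf4 was called higher in LPS + Ska against DMSO (log2 fold change 1.48, SE 0.28, limma adjusted p = 0.00478), and the difference of 0.88 from LPS was not called (SE 0.28, limma adjusted p = 0.0700).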
